A study of Mus musculus with 8 samples.

Results

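The 39 protein-coding HOX genes of the 4 mouse clusters were followed in RNA-seq of V6.5 embryonic stem (ES) cells, a C57BL/6-129 hybrid line. Members were all gene symbols made of Hox, a cluster letter from a to d and a paralogue number, with antisense and opposite-strand transcripts left out, and they were 39 of 26014 genes in the count tables. The Hoxa cluster on chromosome 6 gave 11 members, Hoxb on chromosome 11 gave 10, Hoxc on chromosome 15 gave 9 and Hoxd on chromosome 2 gave 9. Over 8 libraries, 38 members had at least 1 read, 31 had 20 or more, and together they held 8393 of 75567254 counted reads (0.0111%). Hoxd8 had 0 reads in every library; it has 3 accessions, and reads in sequence that accessions share were not counted, so this 0 says nothing about its expression.

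In the OCT4-FKBP line, the OCT4 protein carries an FKBP tag that lets a dTAG compound send it for degradation, and cells were given the compound (dTAG) or its solvent (DMSO) for 24 h. The untagged parental line (WT) was kept without LIF, the cytokine that holds ES cells in self-renewal, for 5 days, or with LIF. Each group had 2 libraries of poly(A) RNA, and by the labels' protocols all cells were V6.5, grown in 2i medium on gelatin. Because dTAG was given to the tagged line alone, what the compound did and what OCT4 loss did cannot be told apart. The labels do not say whether a line was 1 clone or whether replicates were separate cultures, so the p-values below cover only how far these libraries spread, possibly for technical reasons.

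HOX genes encode homeodomain transcription factors that give cells along the head-to-tail axis their regional identity. Within a cluster they lie in the order in which they are switched on in the embryo, so that anterior genes with low paralogue numbers come on first and posterior genes with high numbers last. In ES cells the clusters are held nearly silent under Polycomb marks, with active marks present at the same promoters. In the embryo CDX factors, Wnt and FGF signals, retinoic acid and GDF11 open them step by step, trithorax proteins keep them on, and PBX and MEIS proteins bind DNA together with HOX proteins.

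Counted reads per library ranged from 7221451 to 11447468, and replicates correlated across genes at r of 0.992 to 0.993. Pou5f1, which encodes OCT4, had 84.6 and 90.2 CPM (reads scaled to library size) in dTAG cells and 77.5 and 77.8 CPM in DMSO cells, an edgeR log2 fold change of 0.17 (SE 0.0995, adjusted p = 0.18); the compound acts on the protein, so this transcript does not check the labels. All 8 ES cell markers had reads in every group, and their summed level was 2380 to 2390 CPM with dTAG against 7000 to 7070 CPM with DMSO, and 2220 to 2260 CPM without LIF against 7290 to 7300 CPM with LIF. The sums hide markers that moved differently. Tdgf1 and Utf1 rose without LIF, with means of 1140 and 234 CPM against 713 and 55.1 CPM with LIF, while the others fell. With dTAG Tdgf1 and Utf1 fell, to 49.9 and 9.47 CPM from 603 and 64 CPM with DMSO. Trophoblast markers, of which 6 or 7 of 8 had reads, summed to 42 to 45 CPM with dTAG and 13.3 to 13.8 CPM with DMSO, and to 922 to 983 CPM without LIF and 15.9 to 16.1 CPM with LIF. Without LIF nearly all of this sum was the keratins Krt18 (mean 851 CPM) and Krt7 (71.4 CPM), and Hand1 and Ascl2 also rose. Tfap2c fell, with means of 0.631 CPM without LIF and 3.46 CPM with LIF. Gata3 and Elf5, which have several accessions, had 0 reads without LIF and with LIF. Markers of posterior mesoderm and streak (6 to 8 of 8 with reads) summed to 3.61 to 4.1 CPM with dTAG, 4.84 to 7.72 CPM with DMSO, 38.9 to 40.5 CPM without LIF and 6.18 to 8.82 CPM with LIF. Without LIF T gave most of that sum (mean 25.9 CPM), and Mixl1, Cdx4 and Eomes also rose. Wnt3a fell, with means of 0.179 CPM without LIF and 4.59 CPM with LIF, and Msgn1 and Mesp1 had 0 reads without LIF. Primitive endoderm markers (3 or 4 of 7 with reads) summed to 17.1 to 20.9 CPM with dTAG and 0.421 to 1.14 CPM with DMSO. With dTAG nearly all of it was Gata6. Without LIF they summed to 5.12 to 5.73 CPM, against 1.76 to 1.85 CPM with LIF. Feeder fibroblast markers (7 to 9 of 12 with reads) summed to 33.9 to 34.9 CPM with dTAG, 31 to 37.6 CPM with DMSO, 56.8 to 59 CPM without LIF and 21.8 to 27.2 CPM with LIF; the defining markers Dcn and Postn were at 0 in all groups but have several accessions, while Lum and Col3a1, with 1 accession, were at 0 in both libraries with LIF. In these bulk libraries, fewer cells of a type and less RNA per cell cannot be told apart, and the part of other cell types in the HOX values was not tested.

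HOX transcripts were scarce in every group, and posterior genes of the Hoxc, Hoxb and Hoxd clusters carried most of them. Summed over the 39 members, the level was 177 and 176 CPM in the dTAG libraries and 127 and 128 CPM in the DMSO libraries. Without LIF it was 15.7 and 14.5 CPM, against 121 and 138 CPM with LIF. Libraries without LIF lay below the other 6, and those with dTAG lay above the other 6.

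**Figure D1:**
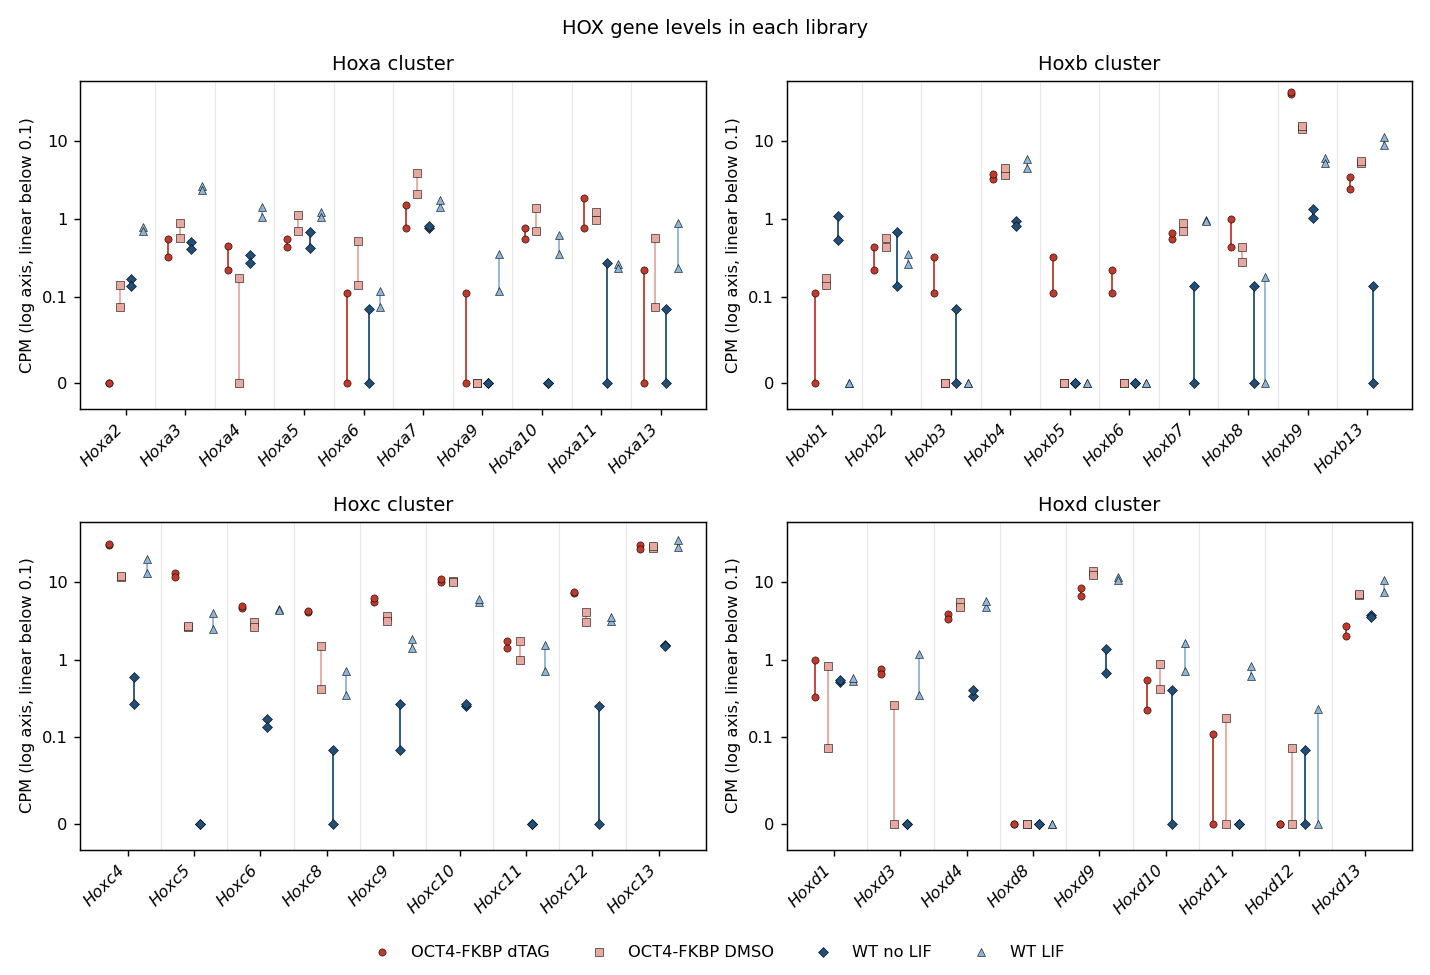
Level of 38 of the 39 HOX genes in CPM (vertical axis, logarithmic above 0.1 and linear below) in each library, by cluster; a symbol is 1 library, and a line joins the 2 libraries of a group. In the Hoxc panel both libraries without LIF (dark blue diamonds) lie below the other 6 for all 9 genes, and Hoxb9, Hoxc4, Hoxc5 and Hoxc8 are higher with dTAG (red circles) than in any other group.

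By position, paralogue groups 9 to 13 (posterior, 16 members) held 62.7% of HOX reads with dTAG, 71.6% with DMSO, 55.5% without LIF and 64.4% with LIF. Groups 4 to 8 (central, 15 members) summed to 63.5 and 63.1 CPM with dTAG against 32.9 and 33.5 CPM with DMSO, and to 3.76 and 3.68 CPM without LIF against 35.6 and 45.2 CPM with LIF. Of the central sum, the 4 Hoxc genes gave 52.5 and 52.2 CPM with dTAG against 18 and 18.8 CPM with DMSO, while the other 11 genes summed to less with dTAG, 10.9 and 10.9 CPM against 14.9 and 14.7 CPM with DMSO. Groups 1 to 3 (anterior, 8 members) summed to 2.95 and 2.33 CPM with dTAG against 2.95 and 2.82 CPM with DMSO, and to 3.5 and 2.32 CPM without LIF against 5.83 and 6.12 CPM with LIF. The anterior genes thus held 20% of the HOX reads without LIF and 1.5% to 4.64% in the other groups.

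Clusters differed in how their sums moved. Hoxc summed to 107 and 105 CPM with dTAG and 65 and 66.3 CPM with DMSO, and Hoxb to 48.4 and 52.9 CPM with dTAG and 25.1 and 27.8 CPM with DMSO. The Hoxb sum was carried by Hoxb9: the other 9 Hoxb genes summed to 7.99 and 9.54 CPM with dTAG, below their 10.7 and 12.1 CPM with DMSO. Hoxd went the other way, with 17.4 and 13.1 CPM in dTAG cells and 27.4 and 25.7 CPM in DMSO cells, as did Hoxa, with 4.38 and 5.32 CPM in dTAG cells and 9.13 and 7.83 CPM in DMSO cells. Without LIF all 4 sums were below those with LIF in both libraries: 2.99 and 2.45 CPM without LIF against 60.6 and 76.1 CPM with LIF for Hoxc, 3.84 and 3.27 against 23.4 and 21.4 CPM for Hoxb, 6.06 and 5.59 against 26 and 31.6 CPM for Hoxd, and 2.82 and 3.14 against 10.9 and 8.94 CPM for Hoxa. Hoxd therefore held the largest share of HOX reads without LIF, 38.6%, and Hoxc the largest in the other 3 groups, 60% with dTAG, 51.7% with DMSO and 52.4% with LIF.

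**Figure D2:**
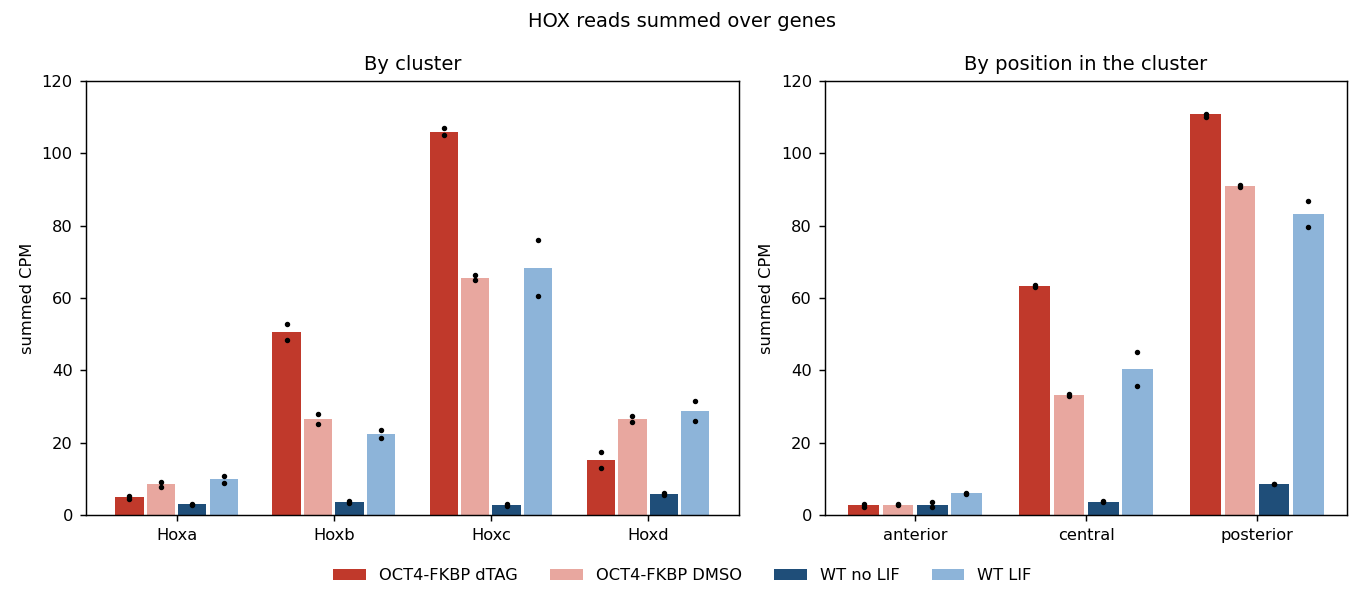
CPM summed over HOX genes by cluster (left) and by position (right: anterior, paralogue groups 1 to 3; central, 4 to 8; posterior, 9 to 13); bars are group means and black points the 2 libraries. Hoxb and Hoxc sums are higher with dTAG than with DMSO, the Hoxb sum through Hoxb9, and Hoxa and Hoxd sums lower, while all 4 are lower without LIF than with LIF.

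Per kilobase of transcript, the order with dTAG began with Hoxb9 at 16.3 ± 0.821 CPM per kb (SD, n = 2 here and below) and Hoxc4 at 15.6 ± 0.267, which overlapped, then Hoxc13 at 11.5 ± 0.967. In DMSO cells Hoxc13 led at 11.6 ± 0.394 CPM per kb, and Hoxd9 (6.11 ± 0.476), Hoxc4 (5.99 ± 0.063) and Hoxb9 (5.85 ± 0.331) overlapped one another. Without LIF the first was Hoxd13 at 1.47 ± 0.0601 CPM per kb, ahead of Hoxc13 at 0.617 ± 0.0105. With LIF the most abundant members were Hoxc13 at 12.9 ± 1.88 CPM per kb, Hoxc4 at 8.33 ± 2.4, Hoxd9 at 5.22 ± 0.216 and Hoxb13 at 4.59 ± 0.756, and the libraries of Hoxd9 and Hoxb13 overlapped.

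Calls below come from 1 edgeR quasi-likelihood fit of all 8 libraries, with Benjamini-Hochberg adjustment over the 10312 genes that passed a filter on low counts and a threshold of 0.05. The filter, about 1.07 CPM in 2 libraries, passed 20 members, each with 1 accession: 5 of Hoxa, 3 of Hoxb, 9 of Hoxc and 3 of Hoxd. Of these, Hoxa3, Hoxa4 and Hoxa5 reached that level in both libraries of WT cells with LIF and of no other group. For Hoxc8 and Hoxc11 the dTAG group was the only such group. DMSO replicate 2 also reached it for Hoxa5 (1.14 CPM), Hoxc8 (1.5 CPM) and Hoxc11 (1.76 CPM), as did replicate 2 with LIF for Hoxc11 (1.53 CPM). A difference was thus built into the passing of Hoxa3 and Hoxa4, and in part of Hoxa5 and Hoxc8. Hoxc11 reached the level in 2 libraries without dTAG. Hoxa11 passed through DMSO replicate 2 (1.23 CPM) and dTAG replicate 2 (1.89 CPM) alone, so a higher level in the tagged line than in WT cells was likewise built in. In the RefSeq annotation 9 of the 20 overlap another gene (Hoxa3, Hoxa4, Hoxa5, Hoxa11, Hoxb4, Hoxc4, Hoxc5, Hoxc9 and Hoxd4); reads in overlaps may be missing from their counts, and those values are uncertain.

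After 24 h of dTAG, 7 of the 20 tested HOX genes rose and 4 fell relative to DMSO, where 20.1% of all tested genes rose and 20.4% fell. The 7 were Hoxb9 and 6 of the 9 Hoxc genes (Hoxc4, Hoxc5, Hoxc6, Hoxc8, Hoxc9 and Hoxc12), and no Hoxc gene fell. Hoxc8 would not have passed the filter without the dTAG libraries, so its rise was in part built in. Those that fell were Hoxa7, Hoxb13, Hoxd9 and Hoxd13, so 2 of the 3 tested Hoxd genes. The median log2 fold change was 0.09 over the 20 members and 0 over all tested genes.

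The largest rises were those of Hoxc5 and Hoxc8. Hoxc5, a central gene of the neck and upper trunk, had 13.2 and 11.8 CPM with dTAG and 2.67 and 2.73 CPM with DMSO, a log2 fold change of 2.2 (SE 0.237, edgeR adjusted p = 2.9e-08). Its neighbour Hoxc4 had 30.5 and 31.3 CPM with dTAG and 11.8 and 12 CPM with DMSO (1.38 on the log2 scale, SE 0.152, edgeR adjusted p = 3.4e-08). For both genes the groups stood well apart and the replicates differed little.

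Hoxc8, which patterns thoracic vertebrae and forelimb motor neurons, had 4.16 and 4.21 CPM with dTAG and 0.421 and 1.5 CPM with DMSO (log2 1.96, SE 0.4, edgeR adjusted p = 0.00027). Only the dTAG group reached the filter's level in both libraries for Hoxc8, so this difference was in part built in. Hoxc12 had 7.33 and 7.43 CPM with dTAG and 4.07 and 3.08 CPM with DMSO (log2 1.08, SE 0.25, edgeR adjusted p = 0.00097). Both dTAG libraries lay above both DMSO libraries in each case, though the DMSO libraries of Hoxc8 differed from each other.

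Hoxc6 had 4.6 and 4.99 CPM with dTAG and 3.09 and 2.64 CPM with DMSO (log2 0.76, SE 0.265, edgeR adjusted p = 0.023). Hoxc9, which sets thoracic motor neuron identity, had 5.47 and 6.21 CPM with dTAG and 3.65 and 3.17 CPM with DMSO (log2 0.79, SE 0.258, edgeR adjusted p = 0.015). These were the smallest rises, and the calls depended on single libraries: without DMSO replicate 2 the edgeR adjusted p was 0.21 for Hoxc6 and 0.16 for Hoxc9, without dTAG replicate 2 it was 0.12 and 0.11, and without dTAG replicate 1 it was 0.063 for Hoxc6. DESeq2 called neither (adjusted p of 0.19 and 0.18).

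The other 3 Hoxc genes gave no call. Hoxc10, a lumbar gene, had 10.1 and 10.9 CPM with dTAG and 10.4 and 10.1 CPM with DMSO (log2 0.03, SE 0.168), and Hoxc13, needed for hair and nails, had 29.9 and 26.5 CPM with dTAG and 27.9 and 29.3 CPM with DMSO (log2 -0.03, SE 0.117). Hoxc11 had 1.42 and 1.77 CPM with dTAG and 0.983 and 1.76 CPM with DMSO (log2 0.14, SE 0.447), an error too wide to tell a rise from none. In all 3 the groups overlapped, and Hoxc12, which rose, lies between Hoxc11 and Hoxc13.

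Hoxb9, which helps pattern the thoracic skeleton, was the only gene called higher outside Hoxc. It had 40.4 and 43.4 CPM with dTAG and 14.5 and 15.7 CPM with DMSO, a log2 fold change of 1.46 (SE 0.119, edgeR adjusted p = 1.1e-10). Hoxb13, the last gene of the cluster, active in the tail bud, had 2.41 and 3.44 CPM with dTAG and 5.34 and 5.63 CPM with DMSO (log2 -0.91, SE 0.271, edgeR adjusted p = 0.0083). The fall of Hoxb13 was not called without dTAG replicate 1 (adjusted p = 0.11), without DMSO replicate 2 (0.055) or by DESeq2 (0.066).

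Both called Hoxd genes were posterior. Hoxd13, required for digits and the genital tubercle, had 2.74 and 2 CPM with dTAG and 6.88 and 7.04 CPM with DMSO (log2 -1.55, SE 0.266, edgeR adjusted p = 3e-05). Hoxd9 had 8.32 and 6.54 CPM with dTAG and 13.8 and 12.3 CPM with DMSO (log2 -0.8, SE 0.181, edgeR adjusted p = 8e-04). In both genes the dTAG libraries were the lower pair. Hoxd4, a hindbrain and neck gene, had 3.94 and 3.33 CPM with dTAG and 5.48 and 4.84 CPM with DMSO, and its log2 fold change of -0.49 (SE 0.249, edgeR adjusted p = 0.12) was not called.

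Among Hoxa genes, Hoxa7 alone was called: it had 1.53 and 0.776 CPM with dTAG and 3.93 and 2.11 CPM with DMSO (log2 -1.3, SE 0.417, edgeR adjusted p = 0.014). That call was lost without DMSO replicate 1 (adjusted p = 0.2), without dTAG replicate 2 (0.17) and in DESeq2 (0.095). Hoxa3, which shapes the thymus and throat, had 0.328 and 0.555 CPM with dTAG and 0.562 and 0.88 CPM with DMSO (log2 -0.76, SE 0.621). Hoxa5, needed for lung development, had 0.438 and 0.555 CPM with dTAG and 0.702 and 1.14 CPM with DMSO (log2 -0.95, SE 0.58).

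Hoxa4 had 2 and 4 reads with dTAG and 0 and 2 with DMSO, a ratio of 3.05 with a 95% counting interval of 0.546 to 30.9. Hoxa11, a limb and uterus gene, had 0.766 and 1.89 CPM with dTAG and 0.983 and 1.23 CPM with DMSO (log2 0.22, SE 0.511). Hoxb4, known from blood stem cells, had 3.28 and 3.77 CPM with dTAG and 3.65 and 4.58 CPM with DMSO (log2 -0.25, SE 0.266). None of these 3 was called, and the libraries of the groups overlapped for Hoxa11 and Hoxb4.

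Promoter sequences are shown for 4 members that went different ways with dTAG, because CDX proteins bind HOX promoters and Cdx2 was among the genes that rose (described below). They are RefSeq's, on build GRCm38.p6, and run from 250 bases before to 50 after the gene's start, 5' to 3' on the gene's strand; the counts were made on mm9. Capitals mark the letters searched on both strands: TTTATG for CDX, TATAAA for a TATA box, TTCNNNGAA for STAT, ATGCAAAT for the octamer that OCT4 binds, CTTTGAT for TCF and TGATTNAT for HOX with PBX.
Hoxc4, chr15:103034145-103034444, plus strand: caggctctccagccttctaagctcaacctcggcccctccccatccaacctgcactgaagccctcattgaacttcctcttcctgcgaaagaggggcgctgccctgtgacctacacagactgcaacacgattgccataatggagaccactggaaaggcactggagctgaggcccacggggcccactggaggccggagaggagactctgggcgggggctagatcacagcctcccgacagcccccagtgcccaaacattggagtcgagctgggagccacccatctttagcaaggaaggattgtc
Hoxa7, chr6:52218524-52218823, minus strand: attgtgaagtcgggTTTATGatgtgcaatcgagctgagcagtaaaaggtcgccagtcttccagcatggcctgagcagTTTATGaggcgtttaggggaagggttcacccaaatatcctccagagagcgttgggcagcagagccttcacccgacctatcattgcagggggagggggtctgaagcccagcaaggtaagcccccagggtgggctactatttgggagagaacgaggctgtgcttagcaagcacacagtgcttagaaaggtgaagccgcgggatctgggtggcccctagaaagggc
Hoxd13, chr2:74667975-74668274, plus strand: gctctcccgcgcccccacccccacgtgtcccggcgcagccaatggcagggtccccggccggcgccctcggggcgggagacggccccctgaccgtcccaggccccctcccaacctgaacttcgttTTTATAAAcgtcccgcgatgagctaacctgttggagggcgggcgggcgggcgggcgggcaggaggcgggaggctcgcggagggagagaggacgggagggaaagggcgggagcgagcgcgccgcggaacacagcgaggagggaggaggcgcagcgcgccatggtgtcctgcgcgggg
Hoxd4, chr2:74721728-74722027, plus strand: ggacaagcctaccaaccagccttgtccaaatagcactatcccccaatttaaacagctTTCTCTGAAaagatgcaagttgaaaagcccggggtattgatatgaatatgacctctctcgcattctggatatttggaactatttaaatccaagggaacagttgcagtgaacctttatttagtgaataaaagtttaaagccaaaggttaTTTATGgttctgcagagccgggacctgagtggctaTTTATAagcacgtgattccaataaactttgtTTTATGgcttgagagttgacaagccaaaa
The Hoxc4 window held none of these letters, Hoxa7 held TTTATG 2 times, and Hoxd13 held TATAAA on both strands as 1 overlapping run. Hoxd4 held TTTATG 2 times, 1 STAT match, and TATAAA on the other strand. The windows of Hoxd9, which also fell with dTAG, and of Hoxb4, which was not called, held none of these letters and are not printed. The 4 windows shown therefore do not stand for all members that rose or fell.

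Entries were used for 22 members with 24 starts: 9 of Hoxa, 3 of Hoxb, 1 of Hoxc and 9 of Hoxd. The shares below thus describe mainly Hoxa and Hoxd, and Hoxc4 is the only one of the 7 genes that rose with dTAG among them. TTTATG stood in 5 of the 24 (20.8%), in Hoxa7, Hoxb8, Hoxd3, Hoxd4 and 1 start of Hoxd11, against 11.9% of all 32851 promoters in the table. The octamer stood in 0 of 24 and in 1.74% of all promoters, TATAAA in 16.7% and 13.6%, TTCNNNGAA in 4.17% and 8.3%, CTTTGAT in 4.17% and 3.73%, and TGATTNAT in 8.33% and 3.22%. The HOX windows held a median of 14.5 CpG (4 to 45), against 7 over all promoters. A match is only a match of letters, and no match says nothing about the factor.

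After 5 days without LIF, nearly all tested HOX genes were lower. Of the 20 tested members 17 fell, where 34.4% of all tested genes fell, and 0 rose, where 34.1% of all tested genes rose. The count of members that rose was also 0 at an unadjusted p under 0.05 in edgeR and 0 in DESeq2. All 9 Hoxc genes fell, as did the 3 tested genes of Hoxb and of Hoxd and 2 of the 5 of Hoxa. Those 2, Hoxa3 and Hoxa4, passed the filter only through the group with LIF. Their falls were thus built in and add nothing to the count of 17. The median log2 fold change was -3.31 over the 20 members and -0.02 over all tested genes.

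**Figure D3:**
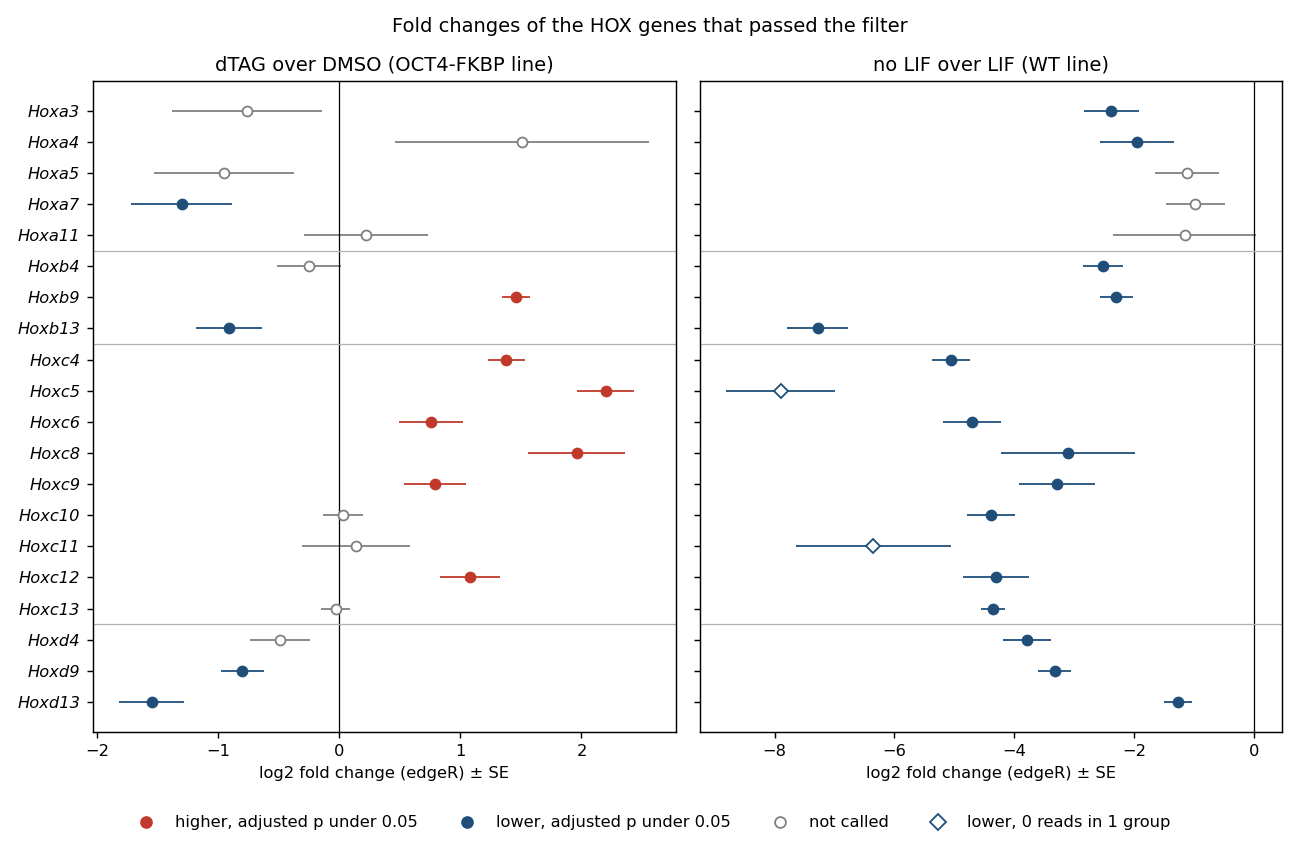
Log2 fold changes with their standard errors (edgeR) for the 20 HOX genes that passed the filter, ordered by cluster and position, for dTAG over DMSO (left) and no LIF over LIF (right); filled symbols are calls at an adjusted p under 0.05, and open diamonds mark genes with 0 reads without LIF, whose fitted fold is no bound. On the left 6 of 9 Hoxc genes and Hoxb9 lie above 0 as calls and 4 genes of other clusters below 0; on the right all 20 estimates are below 0 and 17 are calls.

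By cluster, the median log2 fold change without LIF was -4.39 for Hoxc, -3.33 for Hoxd, -2.52 for Hoxb and -1.16 for Hoxa. Hoxc13 had 1.54 and 1.5 CPM without LIF and 28.5 and 35.1 CPM with LIF, a log2 fold change of -4.36 (SE 0.197, edgeR adjusted p = 1.3e-16). Hoxc4 had 0.598 and 0.273 CPM without LIF and 13.2 and 19.9 CPM with LIF (log2 -5.06, SE 0.32, edgeR adjusted p = 1.8e-13). Hoxc10 had 0.256 and 0.273 CPM without LIF and 5.56 and 6 CPM with LIF (log2 -4.39, SE 0.394, edgeR adjusted p = 2.1e-10). The libraries without LIF lay below those with LIF by a wide margin in all 3.

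Hoxc5 had 0 and 0 reads without LIF and 28 and 34 reads (2.47 and 4 CPM) with LIF, so it was at least 19.8-fold lower against a floor of 3 reads over the group (edgeR adjusted p = 2.9e-08). Hoxc11 had 0 and 0 reads without LIF and 8 and 13 reads with LIF, at least 6.72-fold lower (edgeR adjusted p = 0.00013). Neither gene was detected without LIF at this depth.

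Hoxc6 had 2 and 1 reads without LIF and 51 and 37 with LIF, a ratio of LIF to no LIF of 28.2 (95% counting interval 9.33 to 139, edgeR adjusted p = 2.8e-09). Hoxc12 had 3 and 0 reads without LIF and 36 and 30 with LIF, a ratio of 21.1 (6.92 to 105, edgeR adjusted p = 1.4e-07). Hoxc9 had 1 and 2 reads without LIF and 21 and 12 with LIF, a ratio of 10.6 (3.31 to 53.8, edgeR adjusted p = 4.9e-05). In all 3 genes the LIF libraries held more reads than either library without LIF by a wide margin.

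Hoxc8 was rare in both groups, with 1 and 0 reads without LIF and 8 and 3 with LIF (ratio 10.6, 1.54 to 455, edgeR adjusted p = 0.016). Its call was lost without WT LIF replicate 1 (adjusted p = 0.15) and without either library lacking LIF (0.05 without replicate 1 and 0.087 without replicate 2), and DESeq2 gave 0.054.

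In Hoxb, Hoxb13 had 0 and 1 reads without LIF and 128 and 76 with LIF, and the ratio of LIF to no LIF was 196 (95% counting interval 34.8 to 7780, edgeR adjusted p = 1.6e-12). Hoxb9 had 1.02 and 1.36 CPM without LIF and 6.09 and 5.29 CPM with LIF (log2 -2.3, SE 0.279, edgeR adjusted p = 5.5e-08). Hoxb4 had 0.939 and 0.818 CPM without LIF and 4.59 and 5.88 CPM with LIF (log2 -2.52, SE 0.336, edgeR adjusted p = 2.6e-07). In all 3 genes both libraries without LIF lay below both with LIF.

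In Hoxd, the fall was smallest for Hoxd13, which had 3.76 and 3.55 CPM without LIF and 7.5 and 10.6 CPM with LIF (log2 -1.27, SE 0.228, edgeR adjusted p = 2.1e-05). Hoxd9 had 1.37 and 0.682 CPM without LIF and 11.5 and 10.8 CPM with LIF (log2 -3.33, SE 0.27, edgeR adjusted p = 2.8e-11). Hoxd4 had 0.341 and 0.409 CPM without LIF and 4.85 and 5.76 CPM with LIF (log2 -3.79, SE 0.395, edgeR adjusted p = 3.7e-09). All 3 genes had both libraries without LIF below both with LIF.

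In Hoxa, Hoxa3 had 0.512 and 0.409 CPM without LIF and 2.65 and 2.35 CPM with LIF (log2 -2.38, SE 0.465, edgeR adjusted p = 6.5e-05). Hoxa4 had 0.341 and 0.273 CPM without LIF and 1.41 and 1.06 CPM with LIF (log2 -1.95, SE 0.614, edgeR adjusted p = 0.0067). For both genes a lower level without LIF was built in by the filter, which they passed through the LIF group alone. The Hoxa4 call was lost without either library lacking LIF (adjusted p of 0.067 without replicate 1 and 0.058 without replicate 2) and in DESeq2 (0.12).

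Hoxa5 had 0.427 and 0.682 CPM without LIF and 1.24 and 1.06 CPM with LIF (log2 -1.12, SE 0.538, edgeR adjusted p = 0.068), and Hoxa7 had 0.768 and 0.818 CPM without LIF and 1.41 and 1.76 CPM with LIF (log2 -0.98, SE 0.497, edgeR adjusted p = 0.083). Hoxa11 had 0 and 2 reads without LIF and 3 and 2 with LIF, a ratio of 2.4 with a counting interval of 0.393 to 25.2. None of the 3 was called. The first 2 did not overlap between groups, and Hoxa11 did.

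The 2 responses were compared by their difference, the no LIF log2 fold change minus that of dTAG. It was called for 15 of the 20 members, where 55% of all tested genes were called in either direction. All 15 were lower, meaning a lower fold change without LIF than with dTAG. The share of all tested genes that were lower is not given here. The median difference was -3.92 over the 20 members and -0.02 over all tested genes. The 15 were the 9 Hoxc genes, the 3 tested Hoxb genes, Hoxa4, Hoxd4 and Hoxd9. For Hoxa4 and in part for Hoxc8 this direction was built in by the filter. The difference was -6.44 for Hoxc4 (SE 0.354, edgeR adjusted p = 2.5e-14), -3.76 for Hoxb9 (SE 0.296, 3.7e-11), -4.33 for Hoxc13 (SE 0.242, 3.4e-14) and -2.53 for Hoxd9 (SE 0.349, 8.5e-07). Hoxd13, which fell in both settings, differed by 0.28 (SE 0.363, edgeR adjusted p = 0.54), and Hoxa7 by 0.32 (SE 0.68, adjusted p = 0.72). The call for Hoxa4 did not hold in DESeq2 (adjusted p = 0.1) or in 4 of the 8 fits that each left out 1 library (adjusted p of 0.088 without DMSO replicate 1, 0.18 without dTAG replicate 2, and 0.056 and 0.06 without replicates 1 and 2 lacking LIF). The lines and durations differ between the settings (24 h and 5 days) and cannot be told apart from the treatments.

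The tagged line in DMSO was set against the WT line with LIF as the 2 control states. These states were not alike in the transcript of the targeted gene. Pou5f1 had a mean of 77.7 CPM in DMSO cells and 381 CPM in WT cells with LIF (log2 -2.3, SE 0.0911, edgeR adjusted p = 3.5e-16). Why it differed was not tested. Of the 20 members 4 were higher and 4 lower in the DMSO cells, where 18.5% of all tested genes were higher and 22.1% lower, so the members' shares of 20% each were near the background. Hoxa3 and Hoxa4, among the lower, and Hoxa11, among the higher, passed the filter only through the line where they were high. Tag, clone, solvent and batch of culture cannot be told apart here, and the DMSO libraries are those used against dTAG above. The median log2 fold change was -0.09 over the members and -0.03 over all tested genes.

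Hoxb9 was higher in the DMSO libraries, with 14.5 and 15.7 CPM against 6.09 and 5.29 CPM in WT cells with LIF (log2 1.4, SE 0.162, edgeR adjusted p = 1.4e-07). Hoxc10 was also higher, with 10.4 and 10.1 CPM in DMSO cells and 5.56 and 6 CPM with LIF (log2 0.83, SE 0.184, edgeR adjusted p = 0.00077). Hoxc9 had 3.65 and 3.17 CPM in DMSO cells and 1.85 and 1.41 CPM with LIF (log2 1.01, SE 0.323, edgeR adjusted p = 0.014), and Hoxa11, which passed the filter only through the tagged line, had 7 and 14 reads in DMSO cells and 3 and 2 with LIF (log2 2.11, SE 0.713, edgeR adjusted p = 0.02). The groups did not overlap for these 4 genes, all posterior. Hoxc9 lost its call without DMSO replicate 1 (adjusted p = 0.057), without replicate 2 of the LIF group (0.066) and in DESeq2 (0.086), and Hoxa11 lost its call without DMSO replicate 2 (0.14) and without replicate 1 (0.1) or replicate 2 (0.068) of the LIF group.

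Hoxb13 was lower in the DMSO libraries, with 5.34 and 5.63 CPM against 11.3 and 8.94 CPM in WT cells with LIF (log2 -0.89, SE 0.212, edgeR adjusted p = 0.0015). Hoxa3 had 0.562 and 0.88 CPM in DMSO cells and 2.65 and 2.35 CPM with LIF (log2 -1.72, SE 0.424, edgeR adjusted p = 0.002), and Hoxa4 had 0 and 2 reads in DMSO cells and 16 and 9 with LIF, a ratio of LIF to DMSO of 11.7 (95% counting interval 2.91 to 101, edgeR adjusted p = 0.001). Hoxa3 and Hoxa4 passed the filter only through the LIF group, so a lower level in DMSO cells was built in. Hoxc4 had 11.8 and 12 CPM in DMSO cells and 13.2 and 19.9 CPM with LIF (log2 -0.45, SE 0.166, edgeR adjusted p = 0.034), a call that rested on single libraries, since with replicate 2 of the LIF group left out the log2 fold change was -0.11 (adjusted p = 0.65), and leaving out DMSO replicate 1, DMSO replicate 2 or replicate 2 lacking LIF gave an adjusted p of 0.1, 0.14 and 0.059. DESeq2 did not call Hoxc4 (adjusted p = 0.14) and gave no adjusted p for Hoxa3, Hoxa4 and Hoxa11.

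The other 12 tested members were not called between the control states. Log2 fold changes of DMSO over LIF were -0.14 (SE 0.114) for Hoxc13, -0.22 (SE 0.301) for Hoxc5, -0.65 (SE 0.265) for Hoxc6, 0.93 (SE 0.591) for Hoxc8, 0.43 (SE 0.477) for Hoxc11 and 0.06 (SE 0.285) for Hoxc12. They were -0.35 (SE 0.203) for Hoxd13, 0.21 (SE 0.166) for Hoxd9 and -0.04 (SE 0.229) for Hoxd4. For the last 3 they were -0.3 (SE 0.244) for Hoxb4, -0.26 (SE 0.474) for Hoxa5 and 0.87 (SE 0.385) for Hoxa7. Hoxc6 had an edgeR adjusted p of 0.052 and Hoxa7 of 0.076, the nearest to the threshold. Hoxa7 was called without DMSO replicate 2 (0.022), and Hoxd13 without replicate 1 of the LIF group (log2 -0.6, 0.042).

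The 19 members below the filter held 95 reads with dTAG, 107 with DMSO, 57 without LIF and 156 with LIF. They included 7 of the 8 anterior members (paralogue groups 1 to 3), and the others were central or posterior. The filter passed 9 of the 15 central and 10 of the 16 posterior members. Over the 8 libraries there were 20 reads of Hoxa2, 11 of Hoxa6, 6 of Hoxa9, 40 of Hoxa10 and 20 of Hoxa13 in Hoxa. Hoxb gave 21 of Hoxb1, 30 of Hoxb2, 5 of Hoxb3, 4 of Hoxb5, 3 of Hoxb6, 46 of Hoxb7 and 23 of Hoxb8. Hoxd gave 40 of Hoxd1, 30 of Hoxd3, 45 of Hoxd10, 17 of Hoxd11 and 4 of Hoxd12, beside the 0 of Hoxd8. Hoxa9, Hoxa10, Hoxb3 and Hoxd11 have 2 accessions each, so reads in their shared sequence are missing.

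Hoxb1, which specifies part of the hindbrain and is the first Hoxb gene to be switched on, stood apart. It had 13 and 4 reads without LIF and 0 and 0 with LIF, so at least 5.9-fold more against the floor of 3 reads, and it had 0 and 1 reads with dTAG and 1 and 2 with DMSO. It was the only member with a higher call without LIF, and only outside the filter of the main results: without a filter its edgeR adjusted p was 0.00037. Without Hoxb1 the anterior sum was 2.39 and 1.77 CPM without LIF and 5.83 and 6.12 CPM with LIF.

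Others fell without LIF when no filter was applied. Hoxa10 had 0 and 0 reads without LIF and 7 and 3 with LIF, at least 3.2-fold lower. Hoxd3 had 0 and 0 reads without LIF and 4 and 10 with LIF, and Hoxd11 0 and 0 without LIF and 7 and 7 with LIF, each at least 4.48-fold lower. The edgeR adjusted p without a filter was 0.003 for Hoxa10, 0.00067 for Hoxd3, 0.0023 for Hoxd11, 0.0017 for Hoxd10, 0.00033 for Hoxb7 and 0.026 for Hoxa13. With these 6 the fit without a filter, which tested the 38 members with reads, called 23 members lower. The share of all genes called lower in that fit is not given here, so this count has no background beside it.

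Hoxb5 and Hoxb6 had reads in dTAG libraries only, 3 and 1 reads of Hoxb5 and 2 and 1 of Hoxb6. Hoxb3 had 3 and 1 reads with dTAG, 0 and 0 with DMSO, 1 and 0 without LIF and 0 and 0 with LIF. Hoxd3 had 7 and 6 reads with dTAG and 0 and 3 with DMSO, a ratio of 4.41 (95% counting interval 1.21 to 24.1), the opposite direction to the falls of Hoxd9 and Hoxd13. These counts are at the limit of the depth, and none of these 4 genes was called with dTAG against DMSO without a filter. The antisense transcript Hoxb5os, which overlaps Hoxb5 and Hoxb6, had 3 and 3 reads with dTAG and 0 in the other 6 libraries; whether the counting used strand is not stated, so reads of the sense and antisense genes cannot be told apart.

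Of 18 listed factors and signals upstream of HOX genes 13 were tested. With dTAG 2 rose and 3 fell, where 20.1% of all tested genes rose and 20.4% fell, with a median log2 fold change of 0 beside 0 for all tested genes. Cdx2, a caudal-type factor that opens HOX clusters in the embryo and specifies trophoblast, rose to 192 and 169 CPM with dTAG, against 30.7 and 35 CPM with DMSO (log2 2.44, SE 0.097, edgeR adjusted p = 5.3e-17). Gdf11, a ligand that triggers posterior HOX genes, had 29.8 and 28.1 CPM with dTAG and 7.3 and 8.1 CPM with DMSO (log2 1.89, SE 0.149, edgeR adjusted p = 5.8e-11). Cdx1 fell, with 101 and 96.2 CPM with dTAG and 141 and 133 CPM with DMSO (log2 -0.47, SE 0.0705, edgeR adjusted p = 4.2e-06), as did the ligand gene Wnt3a and Aldh1a2, which makes retinoic acid. Cdx4 had 1 and 2 reads with dTAG and 2 and 1 with DMSO.

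Without LIF, 8 of the 13 rose and 3 fell, where 34.1% of all tested genes rose and 34.4% fell, with a median log2 fold change of 2 beside -0.02 for all tested genes. Cdx1 had 2.22 and 1.91 CPM without LIF and 71.8 and 68.6 CPM with LIF (log2 -5.06, SE 0.139, edgeR adjusted p = 3.6e-21). Wnt3, which starts the primitive streak, had 25.2 and 27.8 CPM without LIF and 0.441 and 0.471 CPM with LIF (log2 5.82, SE 0.26, edgeR adjusted p = 1.1e-16). Cdx4 had 5.46 and 5.59 CPM without LIF and 0.0883 and 0.118 CPM with LIF, and Cdx2 had 2.73 and 1.5 CPM without LIF and 0.53 and 1.06 CPM with LIF (edgeR adjusted p of 6.6e-10 and 0.0022). Wnt8a, Rarg, Fgf8, Cyp26a1 and T (Brachyury, a streak factor) rose too, and Aldh1a2 and Wnt3a fell.

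Between the control states 4 of the 13 genes were higher and 3 lower in DMSO cells, where 18.5% of all tested genes were higher and 22.1% lower. Cdx2 had 30.7 and 35 CPM in DMSO cells and 0.53 and 1.06 CPM in WT cells with LIF (log2 5.43, SE 0.231, edgeR adjusted p = 1.5e-15), and Cdx1 had 141 and 133 CPM in DMSO cells and 71.8 and 68.6 CPM with LIF (log2 0.96, SE 0.0723, edgeR adjusted p = 7.5e-11). Cdx2 was thus far above its WT level in the tagged line without dTAG, and whether this bears on HOX levels was not tested. The difference of the 2 responses was -4.58 for Cdx1 (SE 0.168, edgeR adjusted p = 5.4e-18) and 6.21 for Wnt3 (SE 0.465, edgeR adjusted p = 1.4e-11).

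**Figure D4:**
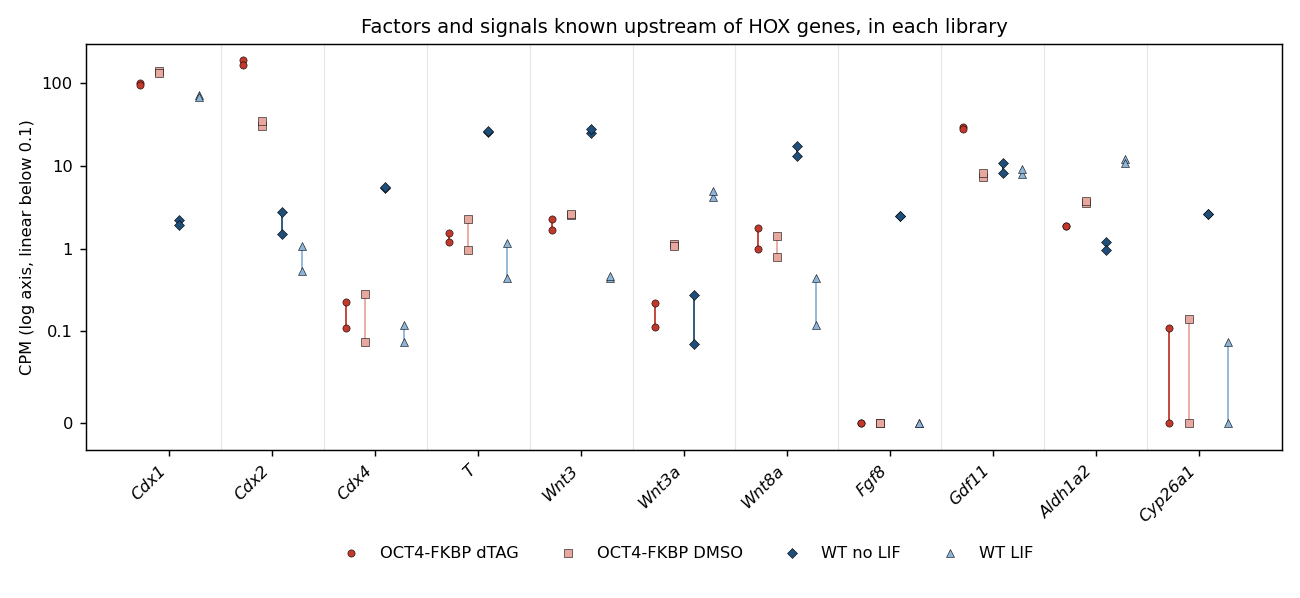
Level in CPM (vertical axis, logarithmic above 0.1 and linear below) of 11 genes known upstream of HOX genes, in each library; a symbol is 1 library and a line joins the 2 libraries of a group. Cdx2 is highest with dTAG (192 and 169 CPM), Cdx1 is lowest without LIF (2.22 and 1.91 CPM), and T, Wnt3, Wnt8a, Cdx4, Fgf8 and Cyp26a1 are highest without LIF.

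Of the 9 TALE-class cofactors (PBX, MEIS and PKNOX genes), 3 passed the filter. Pbx2 rose without LIF (log2 0.82, SE 0.0651, edgeR adjusted p = 2.1e-11; means of 163 CPM without LIF and 93 CPM with LIF), as did Pbx3, where 34.1% of all tested genes rose. None of the 3 was called with dTAG, where 20.1% of all tested genes rose and 20.4% fell. None was called between the control states either, where 18.5% of all tested genes were higher and 22.1% lower. The difference of the responses was 0.71 for Pbx2 (SE 0.0943, edgeR adjusted p = 4.2e-07) and 2.07 for Pbx3 (SE 0.783, adjusted p = 0.027).

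Of 22 tested genes of Polycomb complexes, which repress the clusters, and of the demethylases that remove their mark, 6 rose and 5 fell with dTAG, where 20.1% of all tested genes rose and 20.4% fell. Without LIF 7 rose and 11 fell, where the shares over all tested genes were 34.1% and 34.4% (median log2 fold changes of 0.07 and -0.23). Eed, a core subunit that reads the repressive mark, fell with dTAG (log2 -0.66, SE 0.0534, edgeR adjusted p = 1e-10; means of 299 CPM with dTAG and 472 CPM with DMSO), and the histone-binding Rbbp7 rose (log2 0.59, SE 0.0519, adjusted p = 5.7e-10; 762 and 507 CPM). Kdm6b, a demethylase that removes the Polycomb mark, was also among those that rose with dTAG (log2 0.27, SE 0.0716, edgeR adjusted p = 0.0033) and among those that fell without LIF (log2 -0.64, SE 0.0716, adjusted p = 1.3e-08). Pcgf1 moved in the same directions, but other genes of the list did not. Eed, Suz12 and Mtf2 fell in both settings, and Rbbp7, Cbx7 and Pcgf3 rose in both. Without LIF, Kdm2b, which brings a Polycomb complex to CpG islands, rose (log2 1.93, SE 0.0844, edgeR adjusted p = 7e-17; means of 152 CPM without LIF and 39.7 CPM with LIF). In DMSO cells against WT cells with LIF, 4 were higher and 7 lower, where 18.5% and 22.1% of all tested genes were, led by Phf19 (log2 -2.43, SE 0.272, edgeR adjusted p = 8.2e-08) and Ezh1 (log2 -0.64, SE 0.0763, adjusted p = 2.4e-07). The difference of the responses was 2.21 for Kdm2b (SE 0.136).

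Trithorax genes, whose products keep HOX genes active, gave 7 tested of 11 listed. With dTAG 0 rose and 3 fell, where 20.1% of all tested genes rose and 20.4% fell, and the fall was called for Wdr5 (log2 -0.71, SE 0.0516, edgeR adjusted p = 1.1e-11; means of 375 CPM with dTAG and 615 CPM with DMSO), Ash2l (log2 -0.84, SE 0.165, adjusted p = 0.00018) and Rbbp5, all subunits of a histone H3 methyltransferase core. The same 3 fell without LIF, where 34.4% of all tested genes fell, with Wdr5 at means of 404 CPM without LIF and 804 CPM with LIF (log2 -0.99, SE 0.0512, edgeR adjusted p = 2.3e-15), and Psip1 rose, where 34.1% of all tested genes rose (log2 0.9, SE 0.0532, adjusted p = 4.1e-14). Between the control states Wdr5 was lower in DMSO cells (log2 -0.39, SE 0.0503, adjusted p = 8.7e-07). The difference of the responses was 0.77 for Psip1 (SE 0.0758) and -1.24 for Ash2l (SE 0.251).

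Of 24 noncoding and neighbouring genes of the clusters, 10 were tested. With dTAG 3 rose and 5 fell, where 20.1% of all tested genes rose and 20.4% fell, led by Calcoco2 (log2 -0.26, SE 0.0506, edgeR adjusted p = 0.00015) and Ttll6 (log2 -0.81, SE 0.166, adjusted p = 0.00027), both beside Hoxb. Evx1, the homeobox gene at the posterior end of Hoxa, rose in both settings, with 12 and 10 reads with dTAG against 1 and 2 with DMSO, and 40 and 27 reads without LIF against 1 and 0 with LIF. Without LIF 2 rose and 5 fell, where 34.1% and 34.4% of all tested genes did, with Calcoco2 at means of 53.1 CPM without LIF and 367 CPM with LIF (log2 -2.79, SE 0.0616, edgeR adjusted p = 3.8e-23) and Skap2, beside Hoxa, at 38.2 and 190 CPM (log2 -2.3, SE 0.073, adjusted p = 7.1e-20). In DMSO cells against WT cells with LIF, 2 were higher and 3 lower, where 18.5% and 22.1% of all tested genes were, led by Calcoco2 (log2 0.69, SE 0.0511, edgeR adjusted p = 5.7e-11) and Skap2 (log2 -0.36, SE 0.0629, adjusted p = 5e-05). The difference of the responses was -2.53 for Calcoco2 (SE 0.0799) and -2.05 for Skap2 (SE 0.0984).

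Other homeobox genes that lie in or near HOX-like clusters (5 of 10 tested) gave 0 higher calls with dTAG and 2 lower, where 20.1% and 20.4% of all tested genes were called, and 1 higher and 4 lower without LIF, where 34.1% and 34.4% were. En2, a midbrain and hindbrain gene, had means of 6.39 CPM with dTAG and 32.2 CPM with DMSO (log2 -2.32, SE 0.147, edgeR adjusted p = 7.5e-13), and 4.42 CPM without LIF and 40.4 CPM with LIF (log2 -3.22, SE 0.151, adjusted p = 2.9e-16). Gbx2, which sets the boundary between midbrain and hindbrain, had 15.3 CPM with dTAG and 21 CPM with DMSO (log2 -0.46, SE 0.128, edgeR adjusted p = 0.005), and 5.51 CPM without LIF and 17.7 CPM with LIF (log2 -1.69, SE 0.156, adjusted p = 3.5e-10). Between the control states 3 were lower in DMSO cells, where 22.1% of all tested genes were, led by Mnx1 (log2 -2.14, SE 0.383, edgeR adjusted p = 7.2e-05) and Gbx1 (log2 -1.98, SE 0.591, adjusted p = 0.0092). The difference of the responses was -1.24 for Gbx2 (SE 0.205) and -0.91 for En2 (SE 0.237). En2 and Gbx2 fell in both settings.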

How the data were processed

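RNA-seq was analysed in 8 libraries, 2 in each of 4 groups. The authors deposited 1 table per library of raw counts for RefSeq accessions; HISAT2, HTSeq and mm9 are named per the submitters' processing notes, and their versions and the strand setting are not given in the sources used here. Per the labels' protocols, libraries were poly(A)-selected with a strand-marking kit. HTSeq's summary lines stayed out of library sizes and tests; ambiguous reads were 42.5% of counted plus ambiguous reads, so genes with several accessions or overlapping genes lose reads. Of 41565 accessions, 40231 took a symbol from the RefSeq table (GRCm38.p6), 121 from GENCODE's, and 1213 kept their accession. Counts were summed per symbol.

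The counts were tested in edgeR 4.0.16 (R 4.3.3, limma 3.58.1) with TMM, filterByExpr, glmQLFit and glmQLFTest in 1 fit of the 4 groups (4 residual degrees of freedom), with Benjamini-Hochberg adjustment over 10312 genes and calls under 0.05; DESeq2 1.42.0 was an alternative. CPM were computed from the counts with TMM-adjusted library sizes and are not the authors' values. Standard errors are the fold change over the root of its F statistic. A group at 0 reads was given a floor of 3 reads over the group, and ratios on 1 to 3 reads have exact 95% intervals; both cover counting error only. The steps were tested on simulated data. Levels per kilobase use lengths of the GENCODE transcripts matched to each member, the longest where several matched.

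The members are named with their values; of each other gene list, the called genes with the 2 smallest adjusted p in each comparison and Cdx1, Cdx2 and Cdx4 are given, and further genes were named after their values were seen. 1 member below the filter and 2 genes of other lists are not reported here; sums and counts include them. Members and lists were chosen with earlier results of these data known, so a list is described by counts and medians, without a test of the list. 2 of the listed Polycomb names and 1 trithorax name are older aliases not in the tables. Replicates of every group differed by more than sampling noise. Alternatives were RLE size factors, DESeq2, no filter, at least 1 CPM in 2 libraries, a replicate block, only the 4 libraries compared, each accession alone, genes with 1 accession, and each library left out.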

Additional observations from a re-analysis of the deposited data

How the results depend on the processing

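The counts of HOX genes called were 7 higher and 4 lower for dTAG against DMSO, 0 higher and 17 lower for no LIF against LIF, 4 higher and 4 lower for DMSO against WT cells with LIF, and 15 for the difference of the responses. RLE size factors, a filter of 1 CPM in 2 libraries, each accession alone, and the replicate block left each of these at the same number (7, 4, 0, 17, 4, 4 and 15 with the replicate block). Genes with 1 accession and only the 4 libraries compared kept every count within 1.5 times; the 4 libraries alone cannot give the difference of the responses. DESeq2 gave 5 higher and 2 lower with dTAG, 15 lower without LIF, and 2 higher and 1 lower for DMSO against WT cells with LIF, where 3 genes had no adjusted p, and 14 for the difference; why the other calls were lost was not tested. Without a filter 1 gene, Hoxb1, was called higher and 23 lower without LIF, as more members (38) were tested. The shares over all genes in that fit are not given here. Leaving out each library gave 5 to 7 higher and 3 to 4 lower with dTAG, 0 to 1 higher (Hoxb1, which passed the filter there through a library without LIF, where it is high) and 16 to 20 lower without LIF, and 2 to 4 higher for DMSO against WT cells with LIF, the lowest without replicate 2 of the LIF group, where Hoxa11 and Hoxc9 lost their calls.

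Replicate numbers did not pair the libraries, since correlations of same-numbered deviations were -0.01 to 0.047. Over the single genes no fold change that was called changed sign: of 316 alternative values each for dTAG and for no LIF, 13 and 7 lost their call. Depth limits the 19 members below the filter, most of which had under 50 reads in all, and differences of a few reads there were not detectable.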
